A study of Mus musculus with 4 samples.

Results

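The teneurins and the latrophilins are the cell surface proteins on either side of a cell-to-cell contact, and their RNA was followed here in cultured mouse epidermal keratinocytes (KCs). Tenm2, Tenm3, Tenm4, Adgrl1, Adgrl2 and Adgrl3 were taken by gene name, 6 of the 25814 genes listed for every library. Tenm2 was chosen by its low level under the Nfat5-/- label in these same libraries (the measured values of the comparison below, RPKM and reads), so those values are given as a description with no test, and the other 5 genes complete the families as listed. The study grew KCs from the tails of adult 129/sv mice as untreated primary cultures in a serum-free medium with 0.06 mM Ca++ and sequenced their poly(A) RNA. There were 2 WT libraries and 2 libraries labelled Nfat5-/-, from mice that lack the transcription factor NFAT5 and from their WT siblings. The labels number the libraries of a genotype as replicates and do not say whether these were separate cultures or mice. The tails travelled overnight on ice before the KCs were isolated, and both groups share that history. All cells of an Nfat5-/- mouse carry the mutation, so the genotype was not restricted to KCs.

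Teneurins are very large proteins that cross the membrane once and reach out to partners on the next cell. They bind one another and also bind latrophilins, which are adhesion G protein-coupled receptors (GPCRs) first found as receptors of the black widow spider toxin alpha-latrotoxin. Latrophilins also bind the FLRT proteins, and these complexes are best known from synapses and from the guidance of migrating neurons. NFAT5 is a Rel-family transcription factor known for its part in the response of cells to high salt.

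The libraries held between 16219445 and 23494436 reads placed in genes, of which 1.79% to 1.97% lay in introns, and between 15825 and 16330 genes had a read. The KC markers Krt14 and Krt5 averaged 5883 and 5281 RPKM (exon reads per kilobase of exon, scaled to the mapped reads of the library), and 0 of the 6 KC markers passed an adjusted p of 0.05 in edgeR or DESeq2. At an unadjusted p of 0.05 in edgeR, 1 did, beside 14.6% of all genes tested. It was the integrin gene Itga6, named after its values were seen (147 ± 17.4 RPKM in WT and 112 ± 7.60 under the Nfat5-/- label, adjusted p = 0.206 by edgeR and 0.0951 by DESeq2). Itga6 was lower without overlap between genotypes, beside 25.0% of all genes, and Krt5 was higher without overlap, beside 21.6%. The targeted gene Nfat5 had 408 and 929 gene reads in WT, against 715 and 770 under the Nfat5-/- label, or 2.34 ± 0.940 and 2.40 ± 0.539 RPKM (mean ± SD, n = 2 each, as in all such values here). Its log2 difference was 0.09 (SE 0.26, adjusted p = 0.913 by edgeR's quasi-likelihood test), so reads summed over this gene did not separate the labels, and a deletion of part of the gene could not be checked with them. Groups are therefore named by their labels.

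All of these genes but Adgrl1 are long, and their coordinates in the files are those of GRCm38. Tenm2 (ENSMUSG00000049336) spans 1229 kb of chromosome 11 from 36006656 to 37235964 on the minus strand and is the 29th longest gene listed, with 9911 bases of exon in all. Tenm4 (ENSMUSG00000048078) spans chromosome 7 from 96171246 to 96911093 on the plus strand, and Tenm3 (ENSMUSG00000031561) spans chromosome 8 from 48227682 to 48843951 on the minus strand. Among the latrophilins, Adgrl3 (ENSMUSG00000037605) is the longest, on chromosome 5 from 81020138 to 81825133 on the plus strand. Adgrl2 (ENSMUSG00000028184) lies on chromosome 3 from 148815583 to 148990555 on the minus strand. Adgrl1 (ENSMUSG00000013033) covers 41850 bases of chromosome 8 from 83900105 to 83941954 on the plus strand. The exons make up 0.806% of the span of Tenm2 and 20.4% of that of Adgrl1, so nearly all of a teneurin gene is intron, and intron reads could be followed beside exon reads.

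Because NFAT5 binds DNA, the 250 bases before the RefSeq starts (GRCm38.p6) of all 6 genes were searched on both strands for the letters GGAAA, the core that Rel-family factors of the NFAT group bind, read as TTTCC on the other strand, and for the full NFAT5 consensus known as TonE. The sequences before Tenm2 and one start of Tenm4 are shown because they hold the most matches among the 9 windows of these genes, with the matches in capitals.

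Tenm2, chr11:36944242-36944491, minus strand: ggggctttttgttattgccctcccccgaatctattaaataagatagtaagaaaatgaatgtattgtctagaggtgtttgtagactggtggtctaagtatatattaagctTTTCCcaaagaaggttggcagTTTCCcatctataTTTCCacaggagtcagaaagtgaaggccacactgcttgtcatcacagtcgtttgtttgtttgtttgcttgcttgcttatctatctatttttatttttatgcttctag

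Tenm4, chr7:96170994-96171243, plus strand: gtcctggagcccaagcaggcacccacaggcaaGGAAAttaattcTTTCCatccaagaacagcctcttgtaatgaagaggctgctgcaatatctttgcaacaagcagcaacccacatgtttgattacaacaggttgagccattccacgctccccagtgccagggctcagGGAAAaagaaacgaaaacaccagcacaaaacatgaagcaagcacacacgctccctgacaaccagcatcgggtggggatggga

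Each of these windows holds 3 matches. The other Tenm4 window and the Adgrl1 window hold 2 each, 1 of 3 Adgrl3 windows holds 1, and those of Tenm3 and Adgrl2 hold 0. Of 32851 windows of all genes, 55.6% hold the core and 6.39% hold 3 or more matches. TonE was found in 4.31% of all windows and in 0 of the 9. The windows of Tenm2, Tenm3, Adgrl2 and Adgrl3 and the other Tenm4 window lie inside their genes as listed. Only the Adgrl1 window and the Tenm4 window shown lie before the gene. The counts per gene do not show which start the KCs used.

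In WT KCs, the level of Adgrl2 was the highest, at 3.88 ± 0.513 RPKM, followed by Tenm2 (1.69 ± 0.196), Tenm4 (1.18 ± 0.0355), Adgrl1 (0.717 ± 0.221), Adgrl3 (0.531 ± 0.228) and Tenm3 (0.0173 ± 0.00745). The WT values of Adgrl1 and Adgrl3 overlapped, while the other neighbours in this order did not. In the libraries labelled Nfat5-/-, Adgrl2 again led (5.28 ± 0.216), Tenm4 came next (1.23 ± 0.134), Adgrl3 (0.767 ± 0.284) and Adgrl1 (0.703 ± 0.230) overlapped, Tenm2 stood below them (0.310 ± 0.0419) and Tenm3 was again last (0.00676 ± 0.00216 RPKM).

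**Figure D1:**
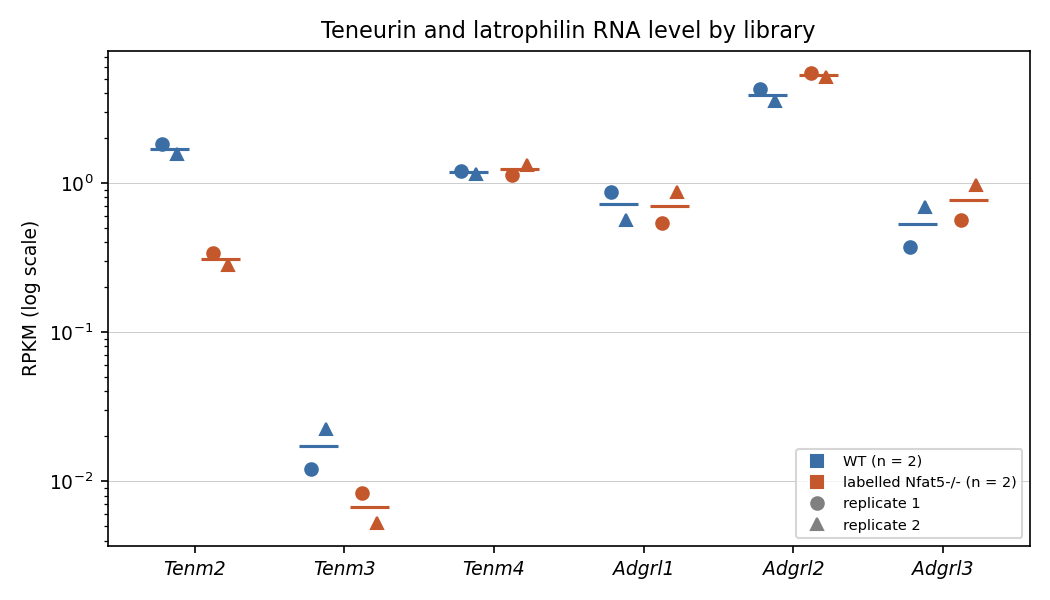
RNA level of each gene in each library, in RPKM on a log scale; points are libraries (circles replicate 1, triangles replicate 2), bars are group means of 2, blue or orange by genotype as in the key. The Tenm2 points of the libraries labelled Nfat5-/- (0.339 and 0.280) sit below both WT points (1.83 and 1.55), whereas Tenm4 overlaps between genotypes.

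Tenm2, whose protein is a known binding partner of the Adgrl1 receptor, had 1.83 and 1.55 RPKM in WT, against 0.339 and 0.280 under the Nfat5-/- label. These levels rest on 322 and 382 gene reads in WT against 89 and 66. Every WT value was above both of the others, and the fitted level was 5.04-fold lower (log2 difference -2.33, SE 0.17). Of 12614 genes tested, 8 (0.0634%), Tenm2 among them, were at or below this log2 difference. This place follows from the choice of Tenm2 by its low level and is no test. Reads that cross an exon junction numbered 33 and 42 in WT, against 9 and 6 under the Nfat5-/- label, and they are part of the same gene reads. In bulk RNA, fewer cells that express a gene and less of its RNA per cell cannot be told apart.

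Intron reads of Tenm2 were 21 and 42 in WT, against 8 and 13 under the Nfat5-/- label. The fitted log2 difference was -1.68 (SE 0.40) for introns and -2.42 (SE 0.20) for exons, and intron minus exon came to 0.72 (SE 0.49). These intron values rest on few reads, and 1 library moved them: without Nfat5-/- replicate 1 the intron difference was -1.19 and intron minus exon 1.35, and without replicate 2 they were -2.25 and 0.05. Without WT replicate 1 or 2, intron minus exon was 0.36 or 1.19. Introns held 6.52% (95% exact binomial interval 4.08 to 9.80) and 11.0% (8.04 to 14.6) of the Tenm2 reads in WT, against 8.99% (3.96 to 16.9) and 19.7% (10.9 to 31.3) under the Nfat5-/- label. These intervals cover counting error only, and they overlap between genotypes for all but the lowest and the highest library.

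Tenm4, a teneurin known for its part in myelination and early development, had 1.20 and 1.15 RPKM in WT, against 1.13 and 1.32 under the Nfat5-/- label. The groups overlapped and the log2 difference was 0.05 (SE 0.14, adjusted p = 0.902 by edgeR). The 95% interval of the fold was 0.821 to 1.31. Its intron reads, 56 and 48 against 59 and 49, also overlapped in CPM (log2 difference -0.11, SE 0.27, adjusted p = 0.892 by edgeR).

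Tenm3, known from the wiring of the visual system and the hippocampus, had 4 and 7 gene reads in WT, against 6 and 3 under the Nfat5-/- label. These counts stand at the floor of 3 reads per library, which equals 0.128 to 0.185 CPM (reads scaled to the gene reads of a library) here, and Tenm3 did not pass the filter on low counts. The 9 reads against 11 give a ratio of 0.735 in CPM, with an exact 95% counting interval of 0.269 to 1.95. No difference was detectable at this depth. The remaining teneurin, Tenm1, was as scarce, with 3 and 7 reads in WT, against 8 and 10 under the Nfat5-/- label.

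The makeup of the teneurin RNA differed accordingly. Tenm2 gave 60.0% and 56.8% of the summed RPKM of Tenm2, Tenm3 and Tenm4 in WT, against 22.9% and 17.4% under the Nfat5-/- label. Tenm4 gave 39.6% and 42.3% in WT and 76.6% and 82.3% in the others, so the leading teneurin was Tenm2 in WT and Tenm4 in the libraries labelled Nfat5-/-. The summed level was 3.04 and 2.73 RPKM in WT, against 1.48 and 1.61 under the Nfat5-/- label. These shares follow from the Tenm2 values above and are no separate result.

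Adgrl2, the most abundant latrophilin, had 4.24 and 3.52 RPKM in WT, against 5.43 and 5.12 under the Nfat5-/- label. All 4 values rest on uniquely placed reads, 497 and 545 gene reads against 907 and 681, and the groups did not overlap. The fitted fold was 1.37 (95% interval 1.10 to 1.69), with a log2 difference of 0.45 (SE 0.13), an unadjusted p of 0.0102 and an adjusted p of 0.180 by edgeR, and an adjusted p of 0.190 by DESeq2. It did not pass the threshold of 0.05, although without the filter on low counts its adjusted p in edgeR was 0.0279. Reads across exon junctions numbered 85 and 101 in WT, against 166 and 118 under the Nfat5-/- label, while intron reads gave a log2 difference of 0.24 (SE 0.26, adjusted p = 0.676 by edgeR).

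Adgrl3, the latrophilin gene with variants studied in attention deficit disorder, had 0.370 and 0.692 RPKM in WT, against 0.566 and 0.967 under the Nfat5-/- label. The groups overlapped, and the log2 difference of 0.46 (SE 0.33) had an adjusted p of 0.578 by edgeR and 0.812 by DESeq2. Its fold lay between 0.808 and 2.33 (95% interval), so an increase of the size seen in Adgrl2 could not be told from none. Leaving out 1 library moved the log2 difference from 0.06 (without replicate 2 of the libraries labelled Nfat5-/-) to 0.92 (without WT replicate 2).

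Adgrl1, the founding latrophilin, had 0.874 and 0.561 RPKM in WT, against 0.540 and 0.865 under the Nfat5-/- label. The groups overlapped fully, and the log2 difference was 0.10 (SE 0.32, fold interval 0.642 to 1.80, adjusted p = 0.917 by edgeR), with its sign turned to -0.01 on exon reads alone. Uniquely placed reads made up 39.4% of its exon reads, so its level is uncertain. Intron reads of Adgrl1 were 6 and 8 in WT, against 12 and 23 under the Nfat5-/- label, with a log2 difference of 1.19 (SE 0.53, unadjusted p = 0.0445, adjusted p = 0.282 by edgeR). It was 0.46 without Nfat5-/- replicate 2 and 1.76 without Nfat5-/- replicate 1. The opposite-strand gene Gm10644 overlaps it and had between 2 and 7 reads.

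Over the 5 genes other than Tenm2, 4 passed the filter and 0 of these 4 differed between genotypes at an adjusted p of 0.05 in edgeR, where 1.27% of all genes tested did (0.943% higher and 0.325% lower under the Nfat5-/- label). By DESeq2 the count was also 0, beside 3.39% of all genes. At an unadjusted p of 0.05 in edgeR it was 1, Adgrl2, beside 14.6% of all genes. Groups that did not overlap in RPKM were seen in 1 of these 4, again Adgrl2, beside 46.5% of all genes (21.6% higher and 25.0% lower). The median log2 difference of the 4 was 0.28, beside -0.01 over all genes tested. Together, the 3 latrophilins summed to 5.49 and 4.77 RPKM in WT, against 6.54 and 6.96 under the Nfat5-/- label, of which Adgrl2 gave between 73.7% and 83.1%.

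**Figure D2:**
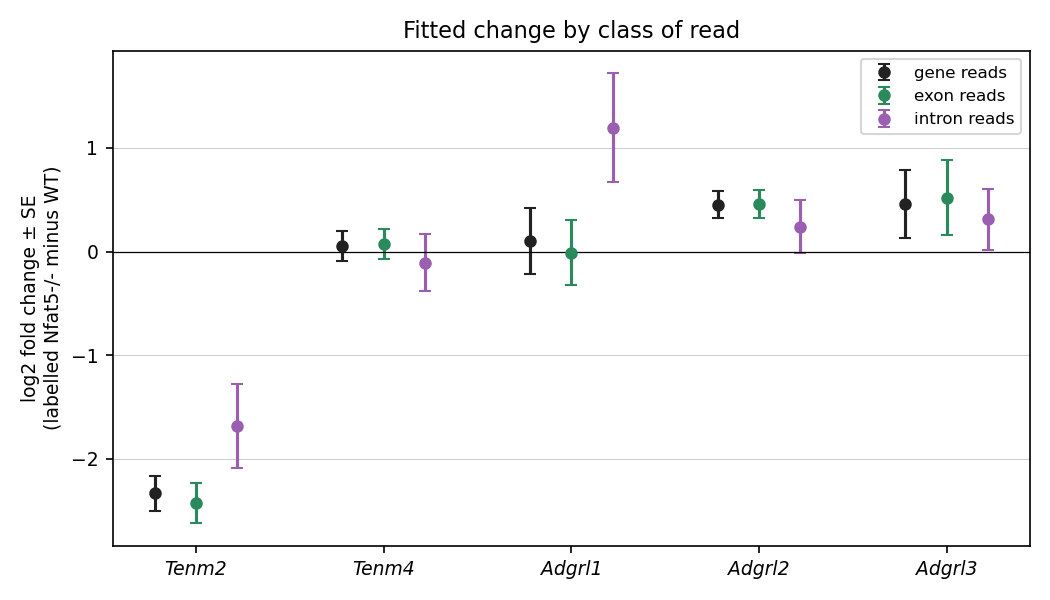
Fitted log2 fold change (labelled Nfat5-/- minus WT) with its SE for gene, exon and intron reads of the 5 genes that passed the filter, from edgeR over 4 libraries. Tenm2 lies at -2.33, -2.42 and -1.68, while the latrophilins lie at or above -0.01 in each class.

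Exon and intron reads were also tested apart and then against each other. For intron reads, 0 of the 4 tested genes other than Tenm2 passed an adjusted p of 0.05 in edgeR, beside 0.0349% of the 5734 genes tested, and 1 (Adgrl1) had an unadjusted p under 0.05, beside 17.3%. DESeq2 called 4 genes on intron reads and 0 of these. Their median intron log2 difference was 0.27, whereas that of all genes was -0.26, the shift to set beside each intron value given here. In the test of intron against exon change, 0 of 5 genes passed, beside 0.886% of 9598 genes, and again Adgrl1 was the 1 gene with an unadjusted p under 0.05, beside 14.2%. Its log2 difference between intron and exon change was 1.16 (SE 0.51, adjusted p = 0.290 by edgeR).

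**Figure D3:**
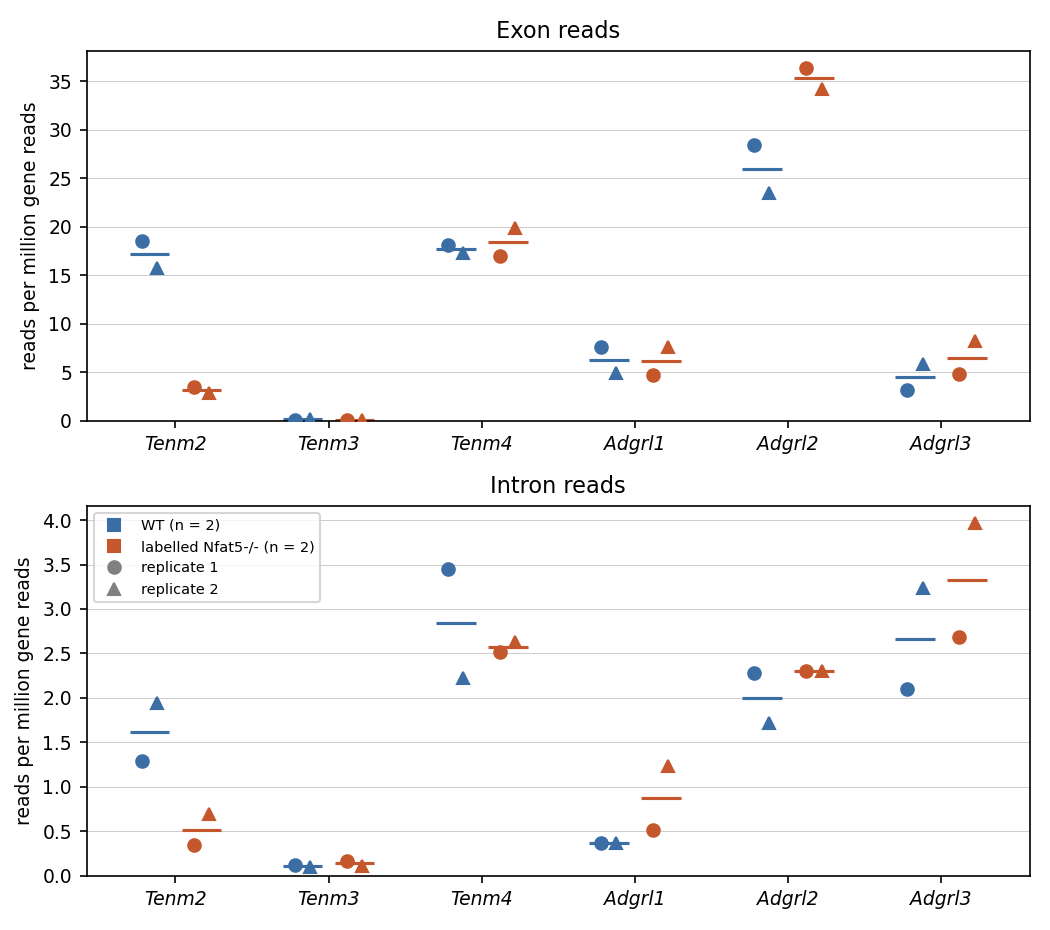
Exon reads (upper panel) and intron reads (lower panel) of each gene, in CPM; points are libraries and bars are means of 2 libraries per genotype. Tenm2 is lower in the libraries labelled Nfat5-/- in both panels, and Adgrl3 has 241 intron reads over the 4 libraries, against 212 for Tenm4, from fewer exon reads.

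The genes differed in how much of their RNA lay in introns. Over the 4 libraries together, introns held 9.78% of the reads of Tenm2, 12.9% of Tenm4, 35.2% of Adgrl3, 6.50% of Adgrl2 and 9.23% of Adgrl1, and 10 of the 20 reads of Tenm3. Genes of 500 kb or more with at least 100 reads had a median of 37.0% (104 genes), so Adgrl3 was near the usual share of a gene of its length, and Tenm2 and Tenm4 were below it. Genes of 20 to 50 kb had a median of 1.42% and genes of 100 to 200 kb one of 3.49%, and Adgrl1 and Adgrl2 were above the medians of their lengths. Per base, exons of Tenm2 were read 1135 times as densely as its introns, those of Tenm4 336 times, those of Adgrl2 371 times, those of Adgrl3 177 times and those of Adgrl1 38.4 times. Only 57.1% of the intron reads of Tenm4 were uniquely placed, against 90.5% for Tenm2.

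Other genes of like length were centred near 0. The 676 tested genes that span at least 200 kb had a median log2 difference of 0.04, and 1 of them, Unc79, was lower than Tenm2. For the 150 tested genes of 500 kb or more, the median was 0.03 and the 10th and 90th percentiles were -0.55 and 0.59. The place of Tenm2 beside them follows from its choice and is read no further.

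**Figure D4:**
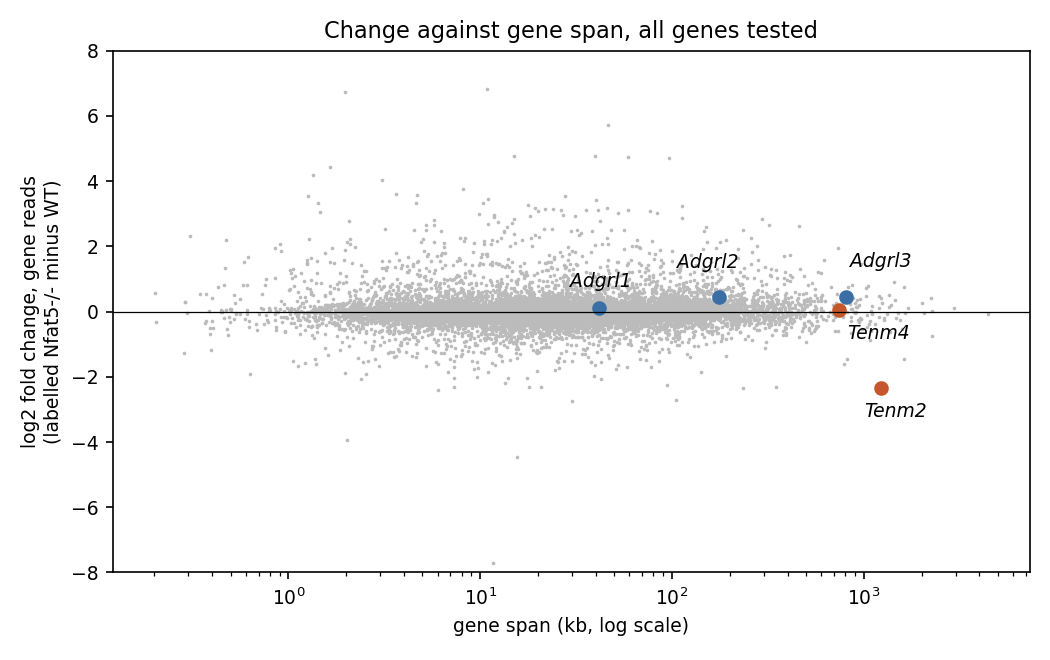
Log2 fold change of gene reads (labelled Nfat5-/- minus WT) against gene span in kb on a log scale, for 12614 genes (grey), with the teneurins in orange and the latrophilins in blue. Tenm2 is the longest of the 5 at 1229 kb and lies at -2.33, while Adgrl3 lies at 0.46 and Tenm4 at 0.05.

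The proteins that latrophilins bind were led by Flrt2 and Flrt3. Of 6 FLRT and neurexin genes, 4 were tested and 0 passed in edgeR, with a median log2 difference of -0.58. Flrt2, a membrane protein that also guides migrating neurons, had 16.8 and 24.3 RPKM in WT, against 8.96 and 14.3 under the Nfat5-/- label (log2 -0.81, SE 0.25, adjusted p = 0.205 by edgeR). Flrt3 had 13.8 and 10.6 RPKM in WT and 9.24 and 9.68 in the others (log2 -0.35, SE 0.14, adjusted p = 0.334 by edgeR). Both were lower without overlap between genotypes, beside 25.0% of all genes, and both had an unadjusted p under 0.05 in edgeR, beside 14.6% of all genes, as did Nrxn3, named after its values were seen, with 61 of its 62 reads in introns. Under 5% of the Flrt3 exon reads were uniquely placed, so its level is uncertain, and the same holds for Flrt1 (log2 0.50, adjusted p = 0.676 by edgeR). Flrt2 was higher than every teneurin and latrophilin in RPKM in all 4 libraries. Of 4 UNC5 netrin receptors, which bind FLRT proteins, Unc5b alone was tested, with 0.836 ± 0.224 RPKM in WT, against 1.03 ± 0.292 under the Nfat5-/- label (adjusted p = 0.675 by edgeR).

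Downstream of the receptors, 0 of 8 G protein alpha subunit genes passed in edgeR or DESeq2 and 0 had an unadjusted p under 0.05, with log2 differences from -0.13 to 0.17. Gnai2 and Gnas led them, at means of 287 and 123 RPKM, although 19.7% of the Gnas exon reads were uniquely placed, so its level is uncertain. Among membrane partners, Dag1, which encodes dystroglycan, had 50.2 ± 0.571 and 52.8 ± 5.21 RPKM (adjusted p = 0.755 by edgeR), and the sarcoglycan gene Sgcb had a log2 difference of -0.03. The endothelial latrophilin relative Adgrl4 had 1 read in each genotype.

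Among 26 other adhesion GPCR genes, 11 were tested and 1 rose in edgeR, beside 0.943% of all genes, with a median log2 difference of 0.28. Without overlap, 4 were higher and 1 was lower, beside 21.6% and 25.0% of all genes. Adgrg2, a receptor best known from the epididymis, had 0.823 and 0.908 RPKM in WT, against 1.92 and 2.45 under the Nfat5-/- label (log2 1.24, SE 0.20, adjusted p = 0.0367 by edgeR). The call of Adgrg2 was lost without Nfat5-/- replicate 1 (0.0948) or Nfat5-/- replicate 2 (0.281, adjusted p by edgeR) and with a replicate block (0.0564). The planar polarity gene Celsr1, the most abundant, had a log2 difference of 0.40 (adjusted p = 0.377 by edgeR), and Adgrg1 one of -0.23 (adjusted p = 0.759 by edgeR).

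**Figure D5:**
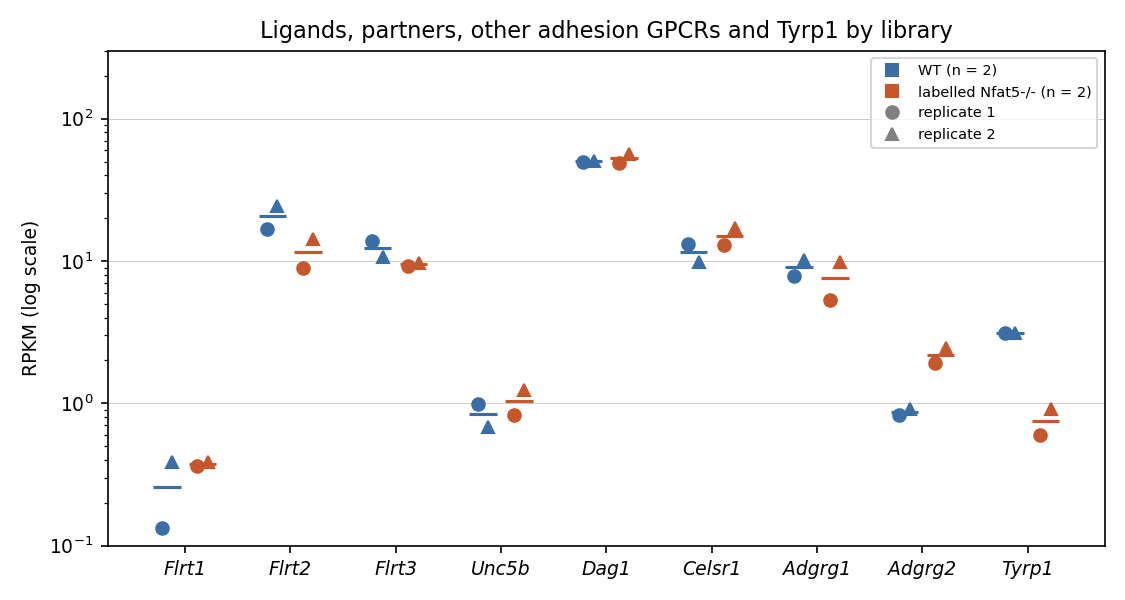
RNA level in RPKM (log scale) of FLRT ligands, Unc5b, Dag1, 3 other adhesion GPCRs and the melanocyte gene Tyrp1, by library and genotype, with bars at means of 2. Adgrg2 is higher and Tyrp1 is lower in both libraries labelled Nfat5-/-.

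Among the lists of markers of other cell types, those of melanocytes and smooth muscle held genes past the threshold in edgeR. The fibroblast, endothelial and immune lists held 0 such genes. The 8 melanocyte markers summed to 7.81 and 7.49 RPKM in WT, against 2.32 and 3.29 under the Nfat5-/- label, with 0 of them at 0. Of 6 tested, 1 fell in edgeR, beside 0.325% of all genes, and 5 were lower without overlap, beside 25.0%, with a median log2 difference of -1.20. The sixth, the transcription factor gene Mitf, was higher without overlap, at 0.249 and 0.204 RPKM in WT and 0.258 and 0.315 in the others (log2 0.27, adjusted p = 0.761 by edgeR), and is named after its values were seen. The gene that fell was Tyrp1, a melanin enzyme, with 3.11 and 3.10 RPKM in WT and 0.602 and 0.908 in the others (log2 -2.04, SE 0.25, adjusted p = 0.0203 by edgeR), while Pmel missed the threshold in edgeR (adjusted p = 0.0772) and passed it in DESeq2 (adjusted p = 0.0330), which called 2 of these markers. Without either Nfat5-/- library Tyrp1 missed it too (adjusted p = 0.0939 and 0.0800 by edgeR), at log2 differences of -1.76 and -2.35. The part of these cells in the Tenm2 difference was not tested.

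Of 5 smooth muscle markers, 4 were tested and 4 rose in edgeR, beside 0.943% of all genes. These were Acta2, Tagln, Myh11 and Cnn1, with log2 differences from 2.00 to 4.71. Myh11 and Cnn1 lost the call without either Nfat5-/- library, and Myh11 also without either WT library. The list summed to 184 and 151 RPKM in WT, against 518 and 819 under the Nfat5-/- label, with Des at 0 or 1 read in each library. The summed level of 7 fibroblast markers was 0.598 and 0.514 RPKM in WT and 0.850 and 1.83 in the others, and 0 of 3 tested passed (Thy1 log2 2.65, adjusted p = 0.102 by edgeR; Col1a1 log2 0.74). Endothelial markers summed to 0.738 to 0.895 RPKM (Kdr and Tie1 leading, 0 of 3 tested passing), Schwann cell and neuron markers to 0.201 to 0.346 RPKM (0 tested), and immune markers to 1.12 to 2.41 RPKM (Cd74 and Ptprc leading, 0 of 1 tested passing). Schwann cell and neuron genes come from the tissue in which teneurins and latrophilins are best known. Their sum was 0.300 and 0.346 RPKM in WT, against 0.201 and 0.209 under the Nfat5-/- label. The part of the smooth muscle genes in the values of the latrophilins was not tested.

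The tested genes nearest to Tenm2 in their pattern over the 4 libraries, by distance of centred log2 CPM, were Unc79 (0.410), Tcfl5 (0.459), Guca1a (0.478), Gm11146 (0.478) and Tyrp1 (0.540), and 31 genes lay within a distance of 1. Unc79, Guca1a and Gm11146 had only 57, 36 and 57 reads in all. For Adgrl2 they were Ralgps1 (0.0447), Tnfrsf21 (0.0468), Fabp5 (0.0607), Lrrc17 (0.0693) and Nat8f4 (0.0722), with 11200 genes within that distance. With 4 libraries, likeness mostly reflects the difference between the genotypes, and it is given as a description.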

How the data were processed

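Poly(A) RNA of cultured KCs was sequenced in 4 libraries (2 WT, 2 Nfat5-Knockout). The authors trimmed the reads, aligned them to GRCm38 and counted them per gene in CLC Genomics Workbench, and deposited per library the raw counts of gene, exon, exon junction and intron reads, with RPKM computed by the authors from exon reads; RPKM values are written with decimal commas. Annotation release and strand use are not given in the sources used here. No sample column was left unmapped (0).

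The counts as deposited were tested in R 4.3.3 with edgeR 4.0.16 (filterByExpr, TMM factors of 0.980 to 1.01, quasi-likelihood test, Benjamini-Hochberg over all genes tested, threshold 0.05). Intron reads used the library sizes and factors of the gene reads. The intron against exon test used a genotype by read class term, with the library as a block, in genes with at least 10 reads of each class. DESeq2 1.42.0 and limma 3.58.1 (log2(RPKM + 1) and log2(RPKM + 0.1)), other filters and scalings, uniquely placed reads, a replicate block and leaving out each library were alternatives. Intervals of fold changes are 95% intervals from the fit. The steps were checked on simulated data. Depth (16219445 to 23494436 gene reads) puts the floor of 3 reads at 0.128 to 0.185 CPM. Replicates were separate libraries, since their counts varied beyond sampling (chi-square over its degrees of freedom 13.3 in WT, 13.8 in Nfat5-Knockout). The p-values measure the spread between these libraries.

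The members and lists were chosen with earlier results of these data known. Genes were named by rule: the 6 genes, Nfat5, in each list those past the threshold and the 2 with the highest mean RPKM, and the 5 nearest to Tenm2 and to Adgrl2. The lists held relatives, FLRT and neurexin ligands, UNC5 receptors, G protein alpha subunits, partners, other adhesion GPCRs, genes of at least 200 kb, and markers of KCs, melanocytes, fibroblasts, smooth muscle, endothelium, Schwann cells and neurons, and immune cells. Some listed genes are not reported here. Flrt1 is plotted to complete its family, and Nrxn3, Mitf and Itga6 were added after their values were seen. Promoter windows came from RefSeq (27025 genes, 6 of 6 matched).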

Additional observations from a re-analysis of the deposited data

How the results depend on the processing

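The count of genes that differed between genotypes, 160 in edgeR, depended on the settings. It was 1137 without the filter on low counts, 427 by DESeq2, 251 on uniquely placed reads, and 1 by limma with either pseudocount, or 65 (pseudocount 1) and 145 (pseudocount 0.1) with 149 genes at 0 RPKM in all libraries left out, a choice made after seeing the data. Leaving out 1 library gave 16 to 467 genes (16 without Nfat5-Knockout replicate 2, 31 without replicate 1, 269 and 467 without WT replicates 1 and 2). The count of members other than Tenm2 was 1 without the filter (Adgrl2) and 0 in all other settings run. For intron reads, 2 genes became 8 with TMM factors of the intron reads, 170 without the filter, 21 on unique reads, 4 by DESeq2, and 36 to 178 when a library was left out. For intron against exon change, 85 genes became 143 with at least 30 reads of each class and 1 to 111 when a library was left out. The cause of these shifts was not tested.

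The deviations of replicate 1 from its group mean had a correlation of -0.07 between the groups. With 2 libraries per group, this cannot show whether the libraries were paired. A replicate block in edgeR called 132 genes on gene reads and 140 on intron reads, and 0 members other than Tenm2.

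Signs turned only among differences that missed the threshold, in the settings run. Adgrl1 was at -0.0121 on exon reads and at -0.0130 (pseudocount 1) and -0.0295 (pseudocount 0.1) by limma, also without the genes at 0. Leaving out 1 library gave -0.33 to 0.45 for Adgrl1, -0.0663 to 0.17 for Tenm4, -0.41 to 0.23 for Tenm4 introns, -0.00866 to 0.67 for Adgrl3 introns and -0.45 to 0.13 for Tenm4 intron minus exon. Tenm4 introns were at 0.16 with intron TMM factors and by DESeq2. Tenm2, a description only, was at -1.04 and -2.13 by limma with pseudocounts of 1 and 0.1. Calls of Adgrg2, Tyrp1, Myh11 and Cnn1 on gene reads were lost when either Nfat5-Knockout library was left out, and by limma with all genes, while their directions held in all settings run. Depth limits Tenm3 (20 reads in all), and the 49 intron reads of Adgrl1.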
